A study of Bos taurus with 11 samples.

Results

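Translation initiation and elongation factors are the proteins that bring ribosomes to messenger RNA, find the start codon and carry the growing chain forward. They were described here in peripheral blood mononuclear cells, which are mostly lymphocytes with some monocytes, of 2 cattle breeds. The members were chosen by the gene name on the array. Names beginning with EIF1 to EIF6, EEF1 or EEF2 were kept, and the kinases and Argonaute genes that share those letters (EIF2AK, EIF2C and EEF2K) were left out. This gave 54 of 17217 named genes and 155 of 43653 probes. The rule itself used names only, but it was set with earlier results of these data known. The array held 6 EEF1, 1 EEF2, 5 EIF1, 11 EIF2, 13 EIF3, 14 EIF4 and 4 EIF5 or EIF6 genes.

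The study compared Ladakhi cattle, a native breed of high altitude (5 arrays), with Sahiwal cattle, a breed of low altitude whose samples are labelled basal (6 arrays). All cattle were female. No treatment other than the basal label, no age and no time point is given. Each array carried total RNA labelled with the single dye Cy3, and samples numbered within a breed were taken as separate animals. The labels do not state this outright. The p-values set each difference against the spread between samples within a breed, and they speak for animals only if the samples are separate animals.

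In the initiation pathway, eIF2 (EIF2S1, EIF2S2 and EIF2S3) brings the initiator tRNA to the small ribosomal subunit, and eIF2B (EIF2B1 to EIF2B5) recharges eIF2 with GTP. eIF3, the complex of many subunits, holds the small subunit ready, while the eIF4 factors bind the cap (EIF4E), unwind the leader (EIF4A) and bridge to the ribosome (EIF4G). In elongation, eEF1A, encoded by EEF1A1 or EEF1A2, delivers aminoacyl-tRNA, eEF1B (EEF1B2, EEF1D and EEF1G) recharges it, and EEF2 moves the ribosome along. Transcripts of elongation factors are among the most abundant of blood cells and carry a pyrimidine tract at their start that ties their translation to mTOR.

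Breed coincided with the platform. Every Ladakhi array was read on an Agilent scanner and every Sahiwal array on an Axon scanner with an older extraction program, and each of the 4 slides held 1 breed, so in every difference below breed cannot be told apart from platform. The Ladakhi arrays were dimmer, with 4243 to 6608 of 43803 spots well above background against 17517 to 20574 on the Sahiwal arrays. Saturated spots numbered 0 on the Ladakhi arrays and 71 to 228 on the Sahiwal arrays. Levels are log2 signals minus the 75th percentile of the 2578 probes detected on all 11 arrays, and differences are Ladakhi minus Sahiwal on that log2 scale. A gene counts as measured if 1 of its probes passed background on 4 or more arrays in both breeds, and the brightest such probe stands for it. The lowest signal well above background lay on average at a level of -3.50 in Ladakhi and -8.10 in Sahiwal. Among markers of the labelled cells, 5 of 8 T cell genes were measured with 2 higher in Ladakhi, 3 of 6 NK and cytotoxic genes with 1 higher, 3 of 6 B cell genes with 2 higher, and 4 of 6 monocyte genes with 3 lower. The summed monocyte marker level lay between 1.02 and 1.92 in Ladakhi and between 2.27 and 3.70 in Sahiwal, and CD68 was above background on 0 Ladakhi arrays. The summed T cell marker level ran from 0.36 to 1.51 and from -0.28 to 1.14, with CD6 on 0 Ladakhi arrays. Summed levels ran from 1.13 to 2.07 and from -1.26 to 1.09 for NK and cytotoxic markers, with NCR1 on 0 Ladakhi arrays, and from 1.32 to 1.71 and from 0.43 to 1.49 for B cell markers, with CD79B and PAX5 on 0. Not all markers moved with their list. Of the markers that were not measured, 4 had a mean Sahiwal level above the Ladakhi limit, and of these CD3E, a T cell gene on 2 Ladakhi arrays, read -2.47 (adjusted p = 0.0233), MS4A1, a B cell gene on 3, read -1.62 (adjusted p = 0.0164), the platelet gene PPBP on 3 read -0.61 (adjusted p = 0.587), and the neutrophil gene CSF3R lay above background on 0 Ladakhi and 6 Sahiwal arrays. Of other cells, 1 of 6 neutrophil, 1 of 3 platelet and 1 of 5 red cell genes were measured, and none of the measured genes passed the test. Of those not measured, CSF3R read -3.29 (adjusted p = 0.00893). The red cell gene ALAS2, on 2 Ladakhi and 5 Sahiwal arrays, read 2.60 (adjusted p = 0.0077), with a mean Sahiwal level of -6.61 under the Ladakhi limit. The summed levels of these cell types lay at 0.66 to 1.96 in Ladakhi against 1.47 to 3.08 in Sahiwal for neutrophils, at 0.90 to 1.34 against -1.90 to 2.26 for platelets, and at -1.71 to -0.75 against -3.56 to 0.78 for red cells. CSF3R, MMP9, CAMP, LTF, HBA, SLC4A1 and AHSP were on 0 Ladakhi arrays. The part of cell composition in the differences below was not tested, and in bulk samples fewer cells of a type and less RNA per cell cannot be told apart.

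A few probe sequences are shown first, because several factors are read by more than 1 probe and the result turned on which probe was read. All positions are on build HGSC Btau_3.1, as the files give them, and the files carry no exon or UTR annotation. EEF1A1 probes A and B lie at chr9:12614826-12614885 and chr9:12614801-12614860 on the minus strand and share 35 aligned bases. Probes C and D lie at chr9:12615559-12615696 and chr9:12615581-12615718, intervals longer than the 60 bases of the probes, and share 38. Capitals mark the 2 bases in each pair that differ.

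EEF1A1 probe A: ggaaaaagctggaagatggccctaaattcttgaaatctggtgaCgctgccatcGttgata

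EEF1A1 probe B: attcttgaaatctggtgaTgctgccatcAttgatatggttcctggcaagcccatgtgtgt

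EEF1A1 probe C: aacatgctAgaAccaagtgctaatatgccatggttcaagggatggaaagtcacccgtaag

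EEF1A1 probe D: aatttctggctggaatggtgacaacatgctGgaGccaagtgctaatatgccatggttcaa

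The 2 EEF1B2 probes, at chr2:99571659-99571718 and chr2:99571662-99571721 on the plus strand, share 57 bases. A stretch of 30 bases of each is shown, with capitals on the 3 bases that differ.

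EEF1B2 probe A: atccatcatgGTtcagtgcccAtaaataaa

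EEF1B2 probe B: atccatcatgTAtcagtgcccTtaaataaa

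The 2 brightest EIF5A probes, at chr19:27397839-27397898 and chr19:27397856-27397914 on the plus strand, share 43 bases with 0 mismatches. The last 30 bases of each are shown, with capitals on the 17 bases of probe B that lie past the end of probe A.

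EIF5A probe A: cacatttgttaaaatcaaacctgaataaaa

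EIF5A probe B: aacctgaataaaaCTACAAGTTTAATATGG

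EIF3E is the contrasting case, a gene whose probes lay far apart and differed in the same direction. Its upstream probe lies at chr14:54086037-54086096 on the plus strand, 16074 bases before the probe that stands for the gene, and is shown with no base in capitals.

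EIF3E upstream probe: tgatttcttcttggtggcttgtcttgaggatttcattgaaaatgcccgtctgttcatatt

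Of the 54 factors, 34 were measured in both breeds, 8 lay above background on 1 to 3 Ladakhi arrays and 12 on 0. Ladakhi cells had higher levels of the cap-binding homologue EIF4E2, the cap-binding inhibitor EIF4EBP1, the scaffold EIF4G3 and the eIF3 subunit EIF3E, and a higher reading of EEF1A1 that is only an upper limit. They had lower levels of the eIF2 gamma subunit EIF2S3, the eIF3 subunit EIF3B, the helicase EIF4A1, the related helicase EIF4A3, which acts in the exon junction complex, and EIF5A, a factor carrying hypusine that aids elongation. That is 10 of 34 past an adjusted p of 0.05 (limma, Benjamini-Hochberg over 17865 tested probes), 5 in each direction, or 29.4%. Over all 2676 measured genes the share was 32.2%, with 17.8% higher and 14.5% lower, so the share of the members lay near the background. With normexp background correction the members divided into 4 higher and 9 lower. The breeds did not overlap in 7 of the 34 members, against 21.3% of all measured genes. The median difference of the 34 was -0.16, beside -0.01 over all measured genes.

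**Figure D1:**
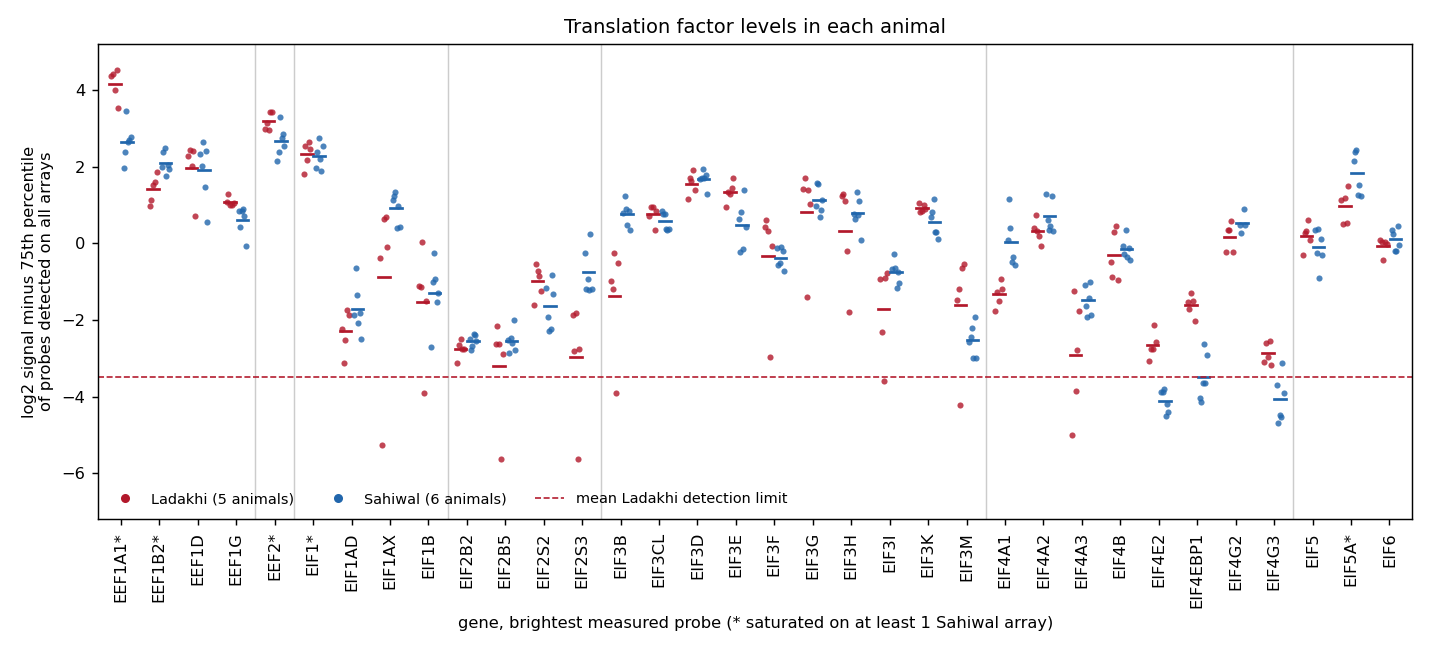
Log2 level of the 34 measured factors (y axis) by gene (x axis, grouped by family, separated by grey lines) in 5 Ladakhi animals (red) and 6 Sahiwal animals (blue); horizontal strokes are breed means and the dashed line is the mean Ladakhi detection limit of -3.50. The breeds lie apart for EEF1A1, EEF1G, EIF2S3, EIF3B, EIF4A1, EIF4E2 and EIF4EBP1. Single Ladakhi points lie far below their group for EIF1AX, EIF2B5, EIF2S3, EIF3B, EIF3F, EIF3G and EIF3M, among others.

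**Figure D2:**
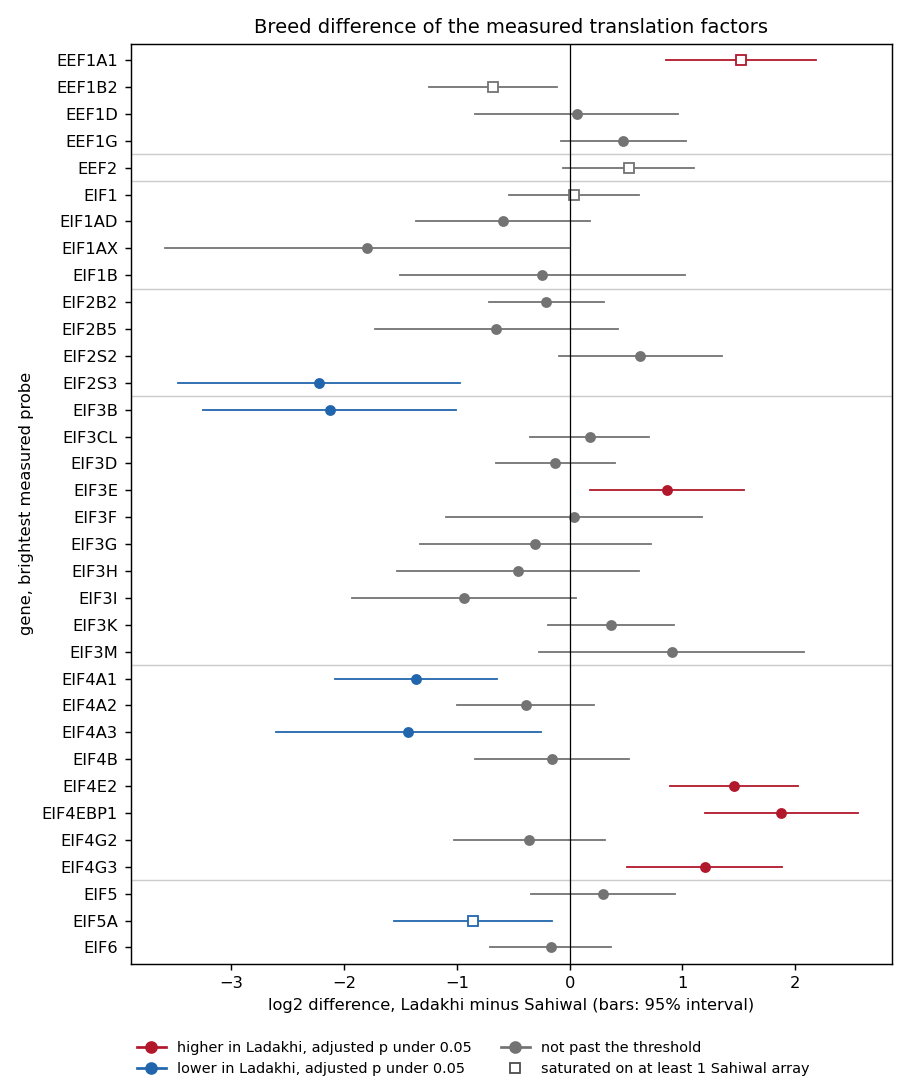
Log2 difference, Ladakhi minus Sahiwal (x axis), of the 34 measured factors (y axis), with 95% intervals of the limma fit on 5 and 6 arrays; red and blue mark the 5 higher and 5 lower genes past an adjusted p of 0.05, and open squares mark genes saturated on at least 1 Sahiwal array. The eIF4 family holds 5 of the 10 coloured genes, in both directions.

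Of the elongation factors, EEF1A1, the tRNA carrier, read 4.38, 4.42, 4.01, 4.51 and 3.52 in Ladakhi animals 1 to 5. The Sahiwal animals ran from 1.96 over a median of 2.66 to 3.46. Every Ladakhi value thus stood above every Sahiwal value, but this probe, at chr9:12614349-12614408, was saturated on all 6 Sahiwal arrays, so the difference of 1.52 ± 0.31 (SE, n = 5 and 6, adjusted p = 0.00187) is an upper limit, at most 2.87-fold. Averaged over its 8 measured probes, EEF1A1 differed by 0.30, with an adjusted p of 0.255, and with quantile normalization by 0.50 relative to the shift of all genes (adjusted p = 0.147).

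The other 7 measured EEF1A1 probes differed by -0.91 to 0.71, and 1 of them passed the threshold. Probes A and B gave 0.71 ± 0.34 (adjusted p = 0.106) and 0.39 ± 0.26 (adjusted p = 0.235). Probe A was itself saturated on 2 Sahiwal arrays. Probes C and D, which differ at 2 of their shared bases, gave -0.02 ± 0.31 (adjusted p = 0.971) and -0.91 ± 0.28 (adjusted p = 0.0195). Probe D read -1.62, -1.17, -1.52, -1.71 and -2.12 in Ladakhi and from -1.17 over -0.69 to -0.26 in Sahiwal, so that the breeds met at their edges in the direction opposite to the brightest probe. A further EEF1A1 probe, placed on chromosome 18, lay above background on 3 Ladakhi and 6 Sahiwal arrays and so was not measured. It read -3.43 (adjusted p = 0.00155), opposite to the brightest probe, and its mean Sahiwal level of -0.44 lay above the Ladakhi limit. EEF1A1 has near-identical copies in mammalian genomes, and signals assigned to it are uncertain for that reason.

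EEF1B2, the exchange factor that recharges eEF1A, read 0.97, 1.14, 1.53, 1.61 and 1.86 in Ladakhi and from 1.75 over 2.02 to 2.49 in Sahiwal by its brighter probe A. The breeds overlapped, the difference was -0.68 ± 0.27 (adjusted p = 0.0535), and saturation on 2 Sahiwal arrays makes the true difference at least as far below 0. EEF1B2 passed the test in 9 of 23 alternatives, at -0.79 (adjusted p = 0.0356) without Ladakhi animal 5 among them. Probe B, which differs from it at 3 bases, read 3.99-fold lower in Ladakhi (SE of the log2 difference 0.39, adjusted p = 0.00137). EEF1D, another eEF1B subunit, differed by 0.06 ± 0.42 (adjusted p = 0.916). EEF1G, the structural eEF1B subunit, read 0.99 to 1.28 in Ladakhi and -0.07 to 0.90 in Sahiwal, without overlap, yet its difference of 0.48 ± 0.26 did not pass the test (adjusted p = 0.153). The EEF1 group had a median difference of 0.27, an upper limit because of its saturated members, with 1 of 4 measured members called. Its median was 0.17 with normexp background correction and -0.015 when the probes of a gene were averaged. EEF1A2, the isoform of muscle and nerve, lay above background on 0 arrays of either breed, and EEF1E1, a subunit of the synthetase complex, on 0 Ladakhi and 6 Sahiwal arrays.

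EEF2, the translocase, read 2.99, 3.14, 2.95, 3.44 and 3.42 in Ladakhi and from 2.14 over 2.65 to 3.30 in Sahiwal. The breeds overlapped, and the difference of 0.53 ± 0.27 (adjusted p = 0.133) is an upper limit, since 4 Sahiwal arrays were saturated. Its 4 measured probes did not give a single direction. The probe at chr7:18634410-18634469 was lower in Ladakhi by its reading of -0.96 ± 0.27 (adjusted p = 0.0128), and the probe 4842 bases before the last one was higher, at 1.82 ± 0.30 (adjusted p = 0.000523). A probe that the files place on chromosome X shares 36 bases with the brightest EEF2 probe, with 0 mismatches, and gave -0.65 ± 0.26 (adjusted p = 0.0578). It was saturated on 3 Sahiwal arrays, so the true difference is at least as far below 0. The EEF2 probe 252 bases before the last one, above background on 2 Ladakhi and 6 Sahiwal arrays and so not measured, read -2.67 (adjusted p = 0.0172). The remaining EEF2 probes lay above background on 0 Ladakhi arrays.

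In the start codon group, EIF1, which guards start codon selection, read 1.81, 2.54, 2.18, 2.63 and 2.47 in Ladakhi and from 1.90 over 2.29 to 2.75 in Sahiwal. The values interleaved, with a difference of 0.04 ± 0.27 (adjusted p = 0.921, 95% interval -0.54 to 0.62) that is an upper limit because 2 Sahiwal arrays were saturated. These values are of the brightest EIF1 probe, and the other measured probe read 0.51. A further EIF1 probe, above background on 2 Ladakhi and 6 Sahiwal arrays and so not measured, read -4.63. EIF1AX, which works with EIF1 in scanning, had the widest interval of the family, with a difference of -1.80 ± 0.84 (adjusted p = 0.0975) and Ladakhi animal 2 at -5.26, not above background. Without that animal the difference was -0.70 (adjusted p = 0.106). None of the 4 measured EIF1 genes passed the test. EIF1AY and EIF2S3Y, named for Y-linked copies, lay above background on 0 of the 11 arrays of these female cattle.

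Among the eIF2 genes, EIF2S3, the gamma subunit that holds GTP and the initiator tRNA, read -1.86, -2.82, -1.80, -5.62 and -2.77 in Ladakhi. The Sahiwal animals ran from -1.21 over -1.05 to 0.25. All 5 Ladakhi animals stood below all 6 Sahiwal animals, and the difference was -2.22 ± 0.58 (4.66-fold lower, adjusted p = 0.00824). The fourth Ladakhi value was not above background, and without that animal the difference was -1.56 (adjusted p = 0.00705). With quantile normalization the difference was -2.66 relative to the shift of all genes, and the call was lost (adjusted p = 0.0528). This gene has a single probe, on chromosome X, and a near-identical Y-linked copy, EIF2S3Y.

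EIF2S2, the beta subunit, picked for the largest mean over the 11 arrays among the eIF2 genes, had a difference of opposite sign that did not pass. It read -1.61, -0.53, -0.73, -0.85 and -1.25 in Ladakhi and from -2.29 over -1.61 to -0.82 in Sahiwal, with overlap, and differed by 0.63 ± 0.34 (adjusted p = 0.147). Its dimmer measured probe gave 1.93 ± 0.36 (adjusted p = 0.00119). The mean Sahiwal level of that probe, -3.49, lay at the mean Ladakhi detection limit of -3.50, so the filter favoured a higher Ladakhi reading. EIF2S1, the alpha subunit whose phosphorylation curbs initiation, lay above background on 0 Ladakhi arrays and 6 Sahiwal arrays. Thus the 3 subunits of 1 complex were read as lower, not past the threshold and not measured.

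Of the 5 eIF2B genes, EIF2B2 and EIF2B5 were measured and neither passed the test. EIF2B5, the epsilon subunit that carries the exchange activity, differed by -0.65, and by -0.04 without Ladakhi animal 4. EIF2B2, the beta subunit, read -3.12, -2.65, -2.49, -2.75 and -2.74 in Ladakhi and from -2.79 over -2.51 to -2.37 in Sahiwal, a difference of -0.21 ± 0.24 (adjusted p = 0.505) within the spread of the animals. The median over the 4 measured eIF2 and eIF2B genes was -0.43, with 1 called. It rested on animal 4 of Ladakhi to a large degree, being -0.12 without it. Over probes detected on all 11 arrays the median was 0.21, from EIF2B2 and EIF2S2 only. That filter left out EIF2S3 and EIF2B5, each above background on 4 Ladakhi arrays and each with a difference below 0.

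The eIF3 complex was the best covered, with 10 of 13 genes measured. EIF3B, a core scaffold subunit, read -0.98, -1.19, -0.25, -3.89 and -0.51 in Ladakhi and from 0.35 over 0.82 to 1.23 in Sahiwal, without overlap. It was lower by -2.13 ± 0.53 (4.37-fold, adjusted p = 0.0058), and by -1.50 (adjusted p = 0.00249) without the fourth Ladakhi animal, whose value was not above background. EIF3E, a subunit with a PCI domain, was higher. It read 0.96, 1.35, 1.30, 1.45 and 1.69 in Ladakhi and from -0.21 over 0.53 to 1.40 in Sahiwal, where the highest Sahiwal animal fell among the Ladakhi values. The difference was 0.86 ± 0.32 (1.82-fold, adjusted p = 0.0416), and it did not pass with normexp (0.51, adjusted p = 0.109) or when any of 8 of the 11 animals was left out.

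The upstream EIF3E probe read -0.18, 0.10, 0.23, 0.70 and 0.42 in Ladakhi and from -2.02 over -1.25 to 0.08 in Sahiwal, a difference of 1.33 ± 0.36 (adjusted p = 0.00979). EIF3E was thus the only one of the 19 genes with at least 2 measured probes in which more than 1 probe was called higher and none lower.

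The remaining eIF3 subunits did not pass the test. EIF3M, a subunit with a PCI domain, differed by 0.90 ± 0.55 (adjusted p = 0.199) by its measured probe. That probe passed at 1.56 (adjusted p = 0.00233) without Ladakhi animal 3, whose value was not above background. The last EIF3M probe along the transcript, above background on 1 Ladakhi and 6 Sahiwal arrays and so not measured, read -2.32. EIF3D, a cap-binding subunit, picked for the largest mean over the 11 arrays in the complex, read 1.16, 1.70, 1.62, 1.91 and 1.39 in Ladakhi and from 1.29 over 1.70 to 1.93 in Sahiwal, a difference of -0.13 ± 0.25 (adjusted p = 0.707). EIF3F, a subunit with an MPN domain, differed least of all members. It read 0.43, 0.60, 0.31, -2.96 and -0.06 in Ladakhi and from -0.72 over -0.36 to -0.11 in Sahiwal, a difference of 0.04 ± 0.53 (adjusted p = 0.96, 95% interval -1.09 to 1.17). In EIF3F 1 low Ladakhi animal offset 4 that stood above every Sahiwal animal.

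Over the 10 measured eIF3 genes the median difference was -0.04, with 1 called in each direction and 5 positive and 5 negative values. EIF3CL, named as a copy of EIF3C, cannot be told from that gene by name alone, and its overlapping probes gave 0.18 and 0.19. EIF3A, EIF3J and EIF3L were not measured. EIF3L, which pairs with EIF3E and EIF3K in the complex, lay above background on 3 Ladakhi arrays and 6 Sahiwal arrays.

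The eIF4 family had the largest share of calls, 5 of 8 measured members, and the only calls above 1 log2 unit in both directions. Against the 32.2% over all measured genes this is 62.5% of 8 genes, and no test of the share was made. The helicase genes EIF4A1 and EIF4A3 were lower. EIF4A1, the main leader helicase, read -1.75, -1.26, -1.49, -0.93 and -1.18 in Ladakhi and from -0.57 over -0.13 to 1.17 in Sahiwal. The breeds did not overlap, and the difference was -1.36 ± 0.34 (2.57-fold lower, adjusted p = 0.00582).

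EIF4A3 read -4.99, -1.25, -3.84, -2.77 and -1.75 in Ladakhi and from -1.91 over -1.53 to -1.01 in Sahiwal. The breeds overlapped through 2 Ladakhi animals, and the difference of -1.43 ± 0.55 (2.70-fold lower) lay just past the threshold (adjusted p = 0.0493). It lost its call when any of 9 of the 11 animals was left out, and with quantile normalization, cyclic loess, normexp and the fit to averaged probes. Without Ladakhi animal 1 it was -0.91 (adjusted p = 0.128), and with normexp -0.44 (adjusted p = 0.194). EIF4A2, the other leader helicase, picked for the largest mean over the 11 arrays among the eIF4 genes, read 0.40, 0.75, 0.32, 0.18 and -0.06 in Ladakhi and from 0.33 over 0.53 to 1.29 in Sahiwal, and its difference of -0.39 ± 0.28 did not pass (adjusted p = 0.287). Its other measured probe gave -1.38 ± 0.36 (adjusted p = 0.00824).

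The genes higher in Ladakhi were dim in Sahiwal. EIF4EBP1, the mTOR target that blocks EIF4E when not phosphorylated, read -1.53, -1.70, -1.30, -1.51 and -2.01 in Ladakhi. The Sahiwal animals ran from -4.12 over -3.63 to -2.63, so every Ladakhi value was higher. The difference of 1.88 ± 0.32 (3.68-fold, adjusted p = 0.00064) was the largest increase among the probes that stand for a member.

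EIF4E2, a cap-binding homologue that can repress translation, read -3.06, -2.75, -2.76, -2.12 and -2.56 in Ladakhi and from -4.51 over -4.04 to -3.81 in Sahiwal, without overlap, a difference of 1.46 ± 0.27 (2.75-fold, adjusted p = 0.000995). EIF4G3, a scaffold related to EIF4G1, read -3.09, -2.60, -2.95, -2.53 and -3.18 in Ladakhi and from -4.68 over -4.20 to -3.11 in Sahiwal, with 1 Sahiwal animal inside the Ladakhi range. It differed by 1.20 ± 0.32 (2.29-fold, adjusted p = 0.00904).

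Mean Sahiwal levels of EIF4E2 and EIF4G3, -4.11 and -4.07, lay under the mean Ladakhi detection limit of -3.50, and that of EIF4EBP1, -3.49, lay at it. A gene at such a Sahiwal level could be counted as measured only if it read higher in Ladakhi, so these calls do not stand for the family. Of the 203 measured genes with a mean Sahiwal level under that limit, 71.4% were called higher, and both members among them were. EIF4E2 has 3 other probes, which lay above background on 0 Ladakhi arrays.

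Other eIF4 genes were not past the threshold or not measured. EIF4B, the helicase partner, differed by -0.16 by its brightest probe and by 1.49 ± 0.27 (adjusted p = 0.000873) by a dimmer one. The mean of these 2 measured probes was higher, at 0.67 (adjusted p = 0.0387). The last EIF4B probe along the transcript, above background on 1 Ladakhi and 6 Sahiwal arrays and so not measured, read -2.71. EIF4G2, which starts translation without the cap-binding protein, differed by -0.36 with 2 Sahiwal values set missing for an outlier mark. The cap-binding protein gene EIF4E lay above background on 1 Ladakhi array, and the scaffold EIF4G1 on 0, while both were above it on all 6 Sahiwal arrays. The median over the 8 measured genes was -0.26. It moved to 0.52 over probes detected on all 11 arrays, a filter that left out EIF4A3 and EIF4G2, and to 0.071 when the probes of a gene were averaged.

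EIF5A read 1.14, 0.49, 1.18, 0.54 and 1.51 in Ladakhi and from 1.24 over 1.83 to 2.44 in Sahiwal by probe A, with overlap. The difference of -0.86 ± 0.33 (1.81-fold lower, adjusted p = 0.047) lost its call when any of 8 of the 11 animals was left out, and with the percentile over all probes (adjusted p = 0.0844). Saturation on 1 Sahiwal array makes it at least as low as read. Probe B, which shares 43 bases with probe A, read -1.83, -2.94, -3.50, -3.68 and -3.22 in Ladakhi and from 0.18 over 0.95 to 1.31 in Sahiwal, a difference of -3.93 ± 0.35 (adjusted p = 9.02e-06). Both were lower, by amounts that differ by 3.07 log2 units. EIF5, which triggers GTP hydrolysis on eIF2, and EIF6, which keeps the large subunit apart, did not pass the test, at 0.30 and -0.17. EIF5A2 lay above background on 0 arrays of either breed.

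**Figure D3:**
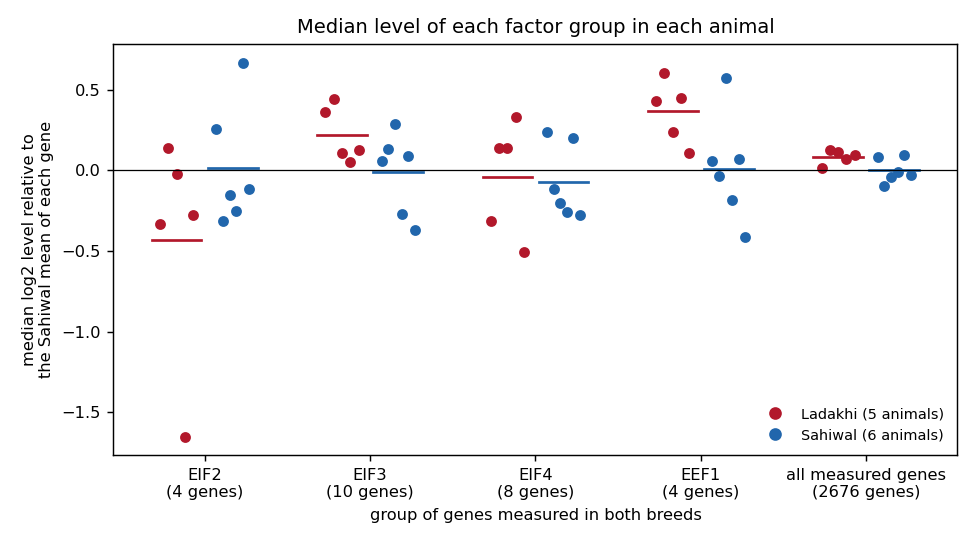
Median log2 level of the measured genes of a group (x axis: EIF2 with EIF2B, EIF3, EIF4, EEF1 and all 2676 measured genes) in each of 5 Ladakhi (red) and 6 Sahiwal (blue) animals, each gene taken relative to its Sahiwal mean; strokes are breed means. The breeds overlap in every group, and Ladakhi animal 4 stands at -1.65 for EIF2.

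Set side by side, the medians of the groups over their measured members were 0.27 for EEF1, -0.04 for EIF3, -0.26 for EIF4 and -0.43 for EIF2. The EEF1 median is an upper limit, since 2 of its 4 measured members were saturated in Sahiwal. Taken per animal, relative to each gene's Sahiwal mean, the EEF1 median spanned 0.11 to 0.60 over Ladakhi animals and -0.42 to 0.57 over Sahiwal animals, and the EIF2 median spanned -1.65 to 0.14 and -0.31 to 0.67. The EIF3 median spanned 0.05 to 0.44 and -0.37 to 0.29. It was thus positive in all 5 Ladakhi animals although the median of the eIF3 differences was -0.04. The EIF4 median spanned -0.50 to 0.33 and -0.28 to 0.24. The pooled SD of these medians between animals of a breed was 0.28 for EEF1, 0.22 for EIF3, 0.29 for EIF4 and 0.55 for EIF2, so the breeds overlapped in all 4 groups.

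Probes of a gene often disagreed. The 54 genes had 63 measured probes, of which 19 were called, 9 higher and 10 lower, or 30.2%. These 63 were among 125 member probes above background on at least 4 Sahiwal arrays. The rest lay above background on fewer than 4 Ladakhi arrays, some of them with Sahiwal levels above the Ladakhi limit. Directions and spreads given here thus hold for measured probes only. Over all 4034 measured probes the shares were 33.0% called, 17.9% higher and 15.1% lower. Of the 19 factors read by 2 or more measured probes, 7 held probes of opposite sign, against 43.0% of the 630 such genes on the array, and EEF1A1 and EEF2 had probes called in both directions. The median spread between a gene's probes was 0.88, beside 0.87 over the 630 genes. Small spreads occurred too, as in EIF3K, an eIF3 subunit whose pair sharing 57 bases read 0.36 by both, and in EIF3CL.

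**Figure D4:**
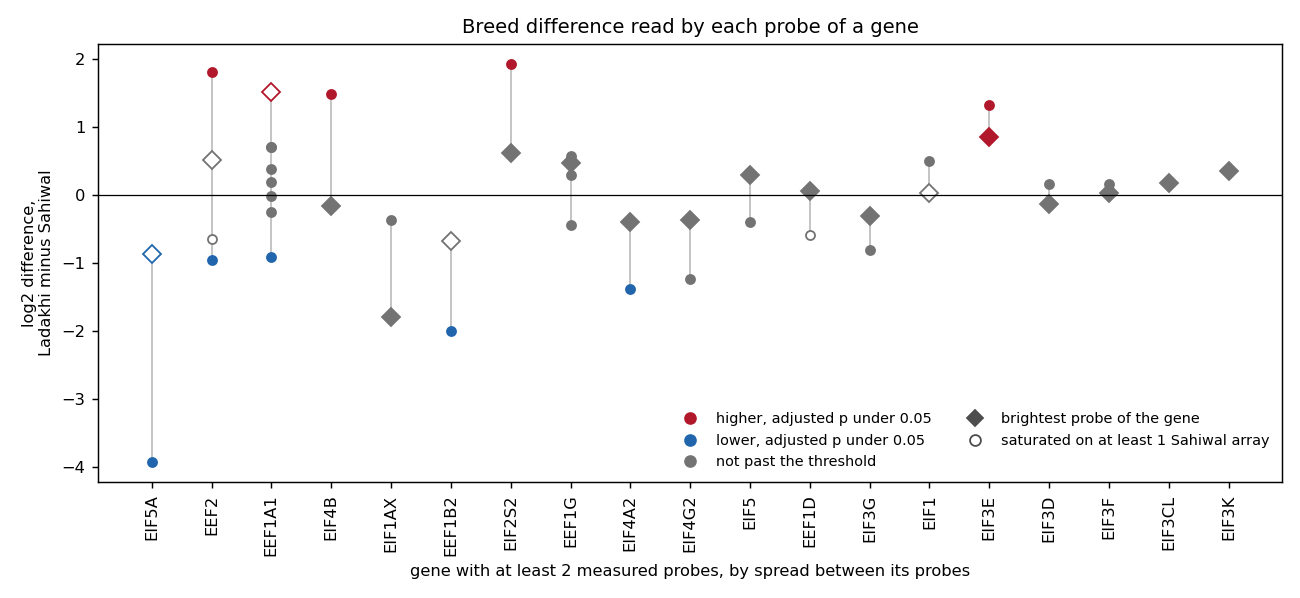
Log2 difference, Ladakhi minus Sahiwal (y axis), of every measured probe of the 19 factors with at least 2 such probes (x axis, sorted by spread); diamonds are the brightest probe, red and blue are probes past an adjusted p of 0.05, and open symbols are saturated on at least 1 Sahiwal array. EIF5A, EEF2 and EEF1A1 have the widest spreads, and EIF3CL and EIF3K the narrowest.

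Detection limited the rest. Of 8695 genes above background on at least 4 Sahiwal arrays, 30.8% were measured in both breeds, and of 47 such members 34 were (72.3%). EIF2A, EIF2B1, EIF2B4, EIF3A, EIF3J, EIF3L, EIF4E and EIF4H lay above background on 1 to 3 Ladakhi arrays. With signals under background raised to each array's lowest detected signal, 3 of these 8 were called lower in Ladakhi, against 17.4% of 2030 genes so placed. They were EIF3L at -1.42 (adjusted p = 0.00277), the helicase partner EIF4H at -1.34 (adjusted p = 0.000709) and the cap-binding protein gene EIF4E at -0.92 (adjusted p = 0.0154), named after their values were seen. A further 3 of the 8 and 34.5% of the 2030 genes came out higher under this setting, but raising the Ladakhi signals alone can lift them past Sahiwal levels that lie under the Ladakhi limit, so no direction is read from these. EEF1A2, EEF1E1, EIF1AY, EIF2B3, EIF2D, EIF2S1, EIF2S3Y, EIF4E1B, EIF4E3, EIF4ENIF1, EIF4G1 and EIF5A2 lay above background on 0 Ladakhi arrays, and for none of them did the Sahiwal level exceed the Ladakhi limit, so no fold can be given.

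The position of a probe in its gene went with detection. In the 44 genes whose probes could be placed in order, the last probe along the transcript was measured in both breeds in 26 of 39 cases in which it was detected in Sahiwal (66.7%), and the other probes in 42.1%. Probes within 1000 genomic bases of the last one were measured in 63.4% of such cases, and those farther upstream in 29.5%. Their median Sahiwal levels differed as well, at -0.76 and -5.10, so position and brightness moved together and their parts were not tested. EIF3E, with an upstream probe 16074 bases away that was measured in both breeds, stands at the far end.

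**Figure D5:**
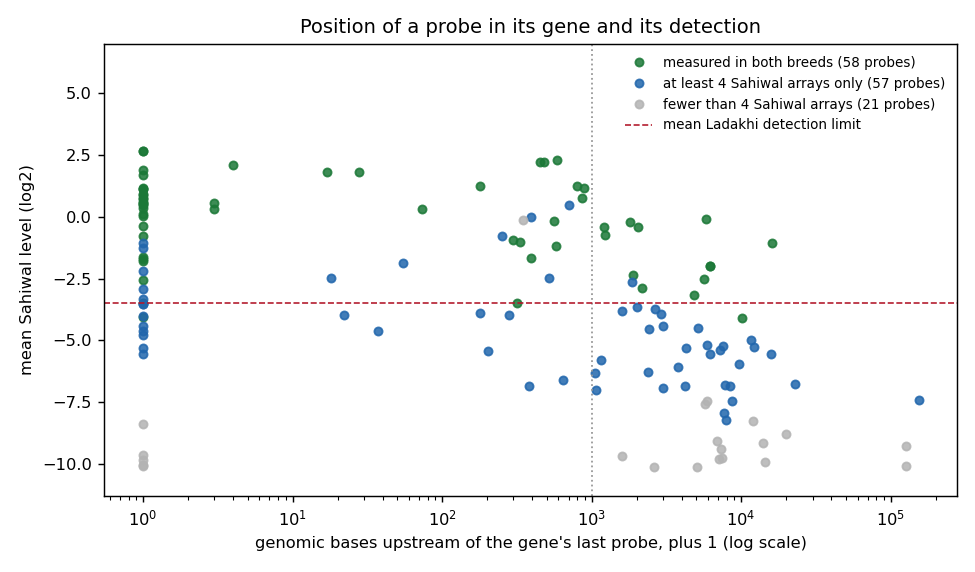
Mean Sahiwal log2 level of a probe (y axis) against the genomic distance to the last probe of its gene (x axis, log scale, plus 1 base), for 44 factor genes; green probes were measured in both breeds, blue ones were above background on at least 4 Sahiwal arrays only, grey ones on fewer. The dotted line marks 1000 bases and the dashed line the mean Ladakhi detection limit of -3.50; few green points lie beyond 1000 bases.

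Genes that work with these factors were taken from a list of 50, of which 49 were on the array and 15 measured. Of the 15, 3 were higher in Ladakhi and 2 lower, beside the same 32.2% over all genes, and the median difference was 0.01. Among the regulators of initiation, 2 of 7 measured were higher and 1 lower. EIF2AK1, the haem-regulated kinase of eIF2, was higher by 1.61 ± 0.25 (adjusted p = 0.000399), with a mean Sahiwal level of -4.03 under the Ladakhi limit. PDCD4, which holds back EIF4A, was 2.15-fold higher (adjusted p = 0.0196). EIF2AK3, the eIF2 kinase of the endoplasmic reticulum, was lower at -1.07 ± 0.26 (adjusted p = 0.00487). Among partners at the cap, the tail and in recycling, 1 of 7 was higher and 1 lower. PABPC1, the poly(A)-binding protein gene, was higher by 1.21 ± 0.24 (adjusted p = 0.00198), and LARP1, which binds transcripts with a pyrimidine tract, was lower at -1.97 ± 0.27 (adjusted p = 0.000166). Of the 9 mitochondrial factors 1 was measured, the elongation factor TUFM, and it differed by -0.03 ± 0.24 (adjusted p = 0.933).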

How the data were processed

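Cells of 5 Ladakhi and 6 Sahiwal cattle were profiled on 1-colour Agilent arrays. The deposited intensity values are, per the file headers, processed Cy3 signals from Feature Extraction after background subtraction and spatial detrending, version 12.0.1.1 for Ladakhi and 9.5.3.1 for Sahiwal. The authors also deposited log2 values centred on each probe's median, with scaling between arrays unstated. Column medians spanned 1.60 to 2.32 over Ladakhi and -0.73 to 0.00 over Sahiwal columns, and each column matched another animal of the same breed, so they served only as an alternative for the breed comparison.

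Control spots were left out, 294 outlier-marked spots were set missing, and spots of a probe were averaged. Log2 signals were scaled by the 75th percentile of the 2578 probes detected on all 11 arrays, since few spots were detected in Ladakhi. Probes above background on at least 4 arrays of a breed (17865) were tested with limma 3.58.1 in R 4.3.3 (lmFit, eBayes, two-sided) with Benjamini-Hochberg adjustment, and the test was checked on simulated data. The 4034 probes detected on at least 4 arrays of both breeds are called measured. Genes whose values are given for every animal were those past the threshold, the brightest of each group and the 2 with the smallest difference, and saturated members are named. Other probes and members named beside these were picked with their values in view. Members and lists were chosen with earlier results of these data known. Accessions of 26740 probes matched the ARS-UCD2.0 gene table, used for names only. Summed marker levels are the log2 of the summed scaled signals of a list's tested genes. Alternatives covered scaling, background correction (normexp, offset 50), filter, raised dim signals, saturation, outlier marks, probe averaging, slide, animal number, the deposited values and each animal left out. The number of arrays limits the precision.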

Additional observations from a re-analysis of the deposited data

Results flagged for a closer look

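Single animals stood apart from the rest of their breed in 9 of the 68 sets of values examined (34 genes in 2 breeds), where chance alone flags about 1 in 20. All 9 were low Ladakhi values. Animal 4 stood low in EIF2B5 and in EIF2S3, both at -5.62 where the next Ladakhi values were -2.89 and -2.82, in EIF3B at -3.89 against -1.19, and in EIF3F at -2.96 against -0.06. Animal 3 stood low in EIF3G at -1.41 against 1.04, in EIF3M at -4.22 against -1.48, and in EIF6 at -0.44 against -0.03. Animal 2 stood low in EIF1AX at -5.26 against -0.37, and animal 5 in EEF1D at 0.71 against 2.01. The values of EIF1AX, EIF2B5, EIF2S3, EIF3B and EIF3M were not above background on those arrays, whereas those of EEF1D, EIF3F, EIF3G and EIF6 were. Among these genes, EIF2S3 and EIF3B were called lower in Ladakhi, with and without animal 4. The call of EIF2S3 was lost with quantile normalization (adjusted p = 0.0528).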

How the results depend on the processing

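Of 802 recomputed differences, 37 lost the threshold and 19 gained it. In 33 of them, spread over 11 genes, the sign changed. None of these 11 genes was called in the main comparison, and 1 of the 33 values passed the threshold, that of EIF4B at 0.67 when its measured probes were averaged. EIF3G turned to 0.25 without Ladakhi animal 3, and EEF2 to -0.19 with quantile normalization. EIF3B, EIF4A1, EIF4E2, EIF4EBP1 and EIF4G3 kept their calls under every alternative that could give them a value. The mean Sahiwal levels of EIF4E2, EIF4EBP1 and EIF4G3 lay under or at the Ladakhi limit. Kept calls do not remove this limit, because detection in Ladakhi admitted these genes. With 10 members called, 5 higher and 5 lower, the lower count was 9 with normexp, 3 over probes detected on all 11 arrays and 8 with slide as a random block (slide correlation -0.11). The EIF3 median was -0.35 with normexp. Over probes on all 11 arrays the EIF2 median was 0.21 and the EIF4 median 0.52, where fewer genes were tested. Averaging the probes of a gene gave an EIF4 median of 0.071 and an EEF1 median of -0.015. Related genes called numbered 5, and were 2 over probes on all 11 arrays and 3 with averaged probes. Apart from the changes whose own construction shows fewer genes tested, the cause was not tested.

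Leaving out 1 animal gave 7 to 10 members called, 4 to 5 higher and 3 to 6 lower, with 5 to 6 related genes called. The lower count was 3 without Ladakhi animal 1, 3 or 4 or without Sahiwal animal 1, 2, 3 or 5. Group medians ran from 0.07 to 0.43 for EEF1, -0.57 to -0.12 for EIF2, -0.18 to 0.03 for EIF3 and -0.35 to -0.13 for EIF4. Quantile, cyclic loess and normexp settings moved the median of all measured probes by 0.17, 0.42 and 0.25, and values under them are relative to that shift. Animal numbers are shared by the breeds, but the deviations of same-numbered animals correlated at only -0.07 to 0.05, so they were not taken as pairs. The replicate block over 5 animals of each breed gave 8 members called, 4 higher and 4 lower, and medians of 0.07 for EEF1, -0.45 for EIF2, -0.12 for EIF3 and -0.30 for EIF4. Detection in Ladakhi set which members could be compared.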
